A study of Homo sapiens with 7 samples.

Results

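The 239 transfer RNA (tRNA) genes annotated on human chromosomes 1 and 6 were examined for peaks of B-cell transcription factors and coactivators. They are the RefSeq GRCh38.p14 genes of biotype tRNA on these chromosomes, 85 on chromosome 1 and 154 on chromosome 6, out of 429 tRNA genes on chromosomes 1 to 22 and X. A further 14 tRNA entries listed under chromosomes 1 and 6 with coordinates of unplaced or patch scaffolds were left out. A gene was counted as having a peak when any part of a deposited peak lay within 500 bp of it.

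The study profiled OCI-Ly7, an established human diffuse large B-cell lymphoma line, by chromatin immunoprecipitation and sequencing (ChIP-seq). Antibodies were directed against OCA-B (POU2AF1, the B-cell coactivator of the octamer-binding factors), the octamer factors OCT1 (POU2F1) and OCT2 (POU2F2), the acetyltransferases EP300 and CREBBP and the Mediator subunit MED1, with 1 library each in untreated cells and 1 shared input library as control. The 6 ChIP libraries held 12357450 to 27885791 tags after duplicate filtering and gave 23571 (OCT1) to 82569 (EP300) peaks on chromosomes 1 to 22 and X, so the lists differ in depth and length, and OCT1 has the shortest list. No library was repeated, so no replicate error exists for any value, and no test between factors or gene groups was made.

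tRNA genes are transcribed by RNA polymerase III (Pol III) from a promoter that lies inside the gene. An A box and a B box in the transcribed DNA are bound by the assembly factor TFIIIC, which places TFIIIB, a complex of TBP, BDP1 and BRF1, upstream of the start, and TFIIIB recruits the polymerase. The octamer factors are best known at B-cell enhancers, histone genes and the small RNA genes whose Pol III promoter lies outside the gene. The human genome carries many copies of each tRNA gene, several in large clusters, among them one interleaved with the histone genes of chromosome 6. Gene symbols give the amino acid in the one-letter code, the anticodon, the family of identical mature sequence and the copy; X stands for the initiator methionine tRNA.

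The internal promoter can be seen in the few tRNA genes whose bases are held in the RefSeq promoter windows of neighbouring genes (GRCh38.p14). These windows overlapped 11 of the 239 genes and held 7 of them whole. The 5 shown are a gene in 5 lists, 2 with OCA-B alone and 2 in no list. Capitals mark a B box match (GTTCNANNC) and, in the leucine genes, a match to the shorter of 2 A box patterns; the strand was read from the boxes.
TRL-CAA1-1, first 49 bases of 106, chr6:28896280-28896328, minus strand, 5 lists: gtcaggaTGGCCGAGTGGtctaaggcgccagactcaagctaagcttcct
TRL-AAG2-2, chr6:28943622-28943703, minus strand, no list: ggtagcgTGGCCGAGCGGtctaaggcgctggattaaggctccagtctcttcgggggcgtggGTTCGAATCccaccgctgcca
TRA-AGC2-2, chr6:28863685-28863756, minus strand, OCA-B only: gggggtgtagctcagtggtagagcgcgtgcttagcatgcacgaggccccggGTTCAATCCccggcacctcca
TRH-GTG1-3, chr1:148281365-148281436, plus strand, OCA-B only: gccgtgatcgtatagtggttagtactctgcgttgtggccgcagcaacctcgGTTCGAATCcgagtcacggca
TRI-AAT8-1, chr6:27668583-27668656, plus strand, no list: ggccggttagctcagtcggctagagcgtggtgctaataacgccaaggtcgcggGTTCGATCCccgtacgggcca
All 7 genes held whole matched the B box letters, and 7.46% of the 34961 promoter windows of 300 bases matched them on either strand. The longer A box pattern, chosen first, matched none of the 11 genes or gene pieces and 2.75% of the windows. The shorter, with 1 base fewer between its ends, was added after that and matched 2.29% of the windows. None of the 11 genes or gene pieces contained the octamer ATGCAAAT, which 1.77% of the windows held. The genes and pieces are 11 to 94 bases long, shorter than the windows, so these shares are not like for like. The leucine genes TRL-CAA1-1 and TRL-AAG2-2 both matched the shorter pattern, and they lay in the same cluster with peaks in 5 lists and in none.

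Peaks at these tRNA genes were less frequent than at the tRNA genes of the other chromosomes in every list. Against genes in general they were about as frequent for OCA-B, MED1 and CREBBP and less frequent for OCT2, EP300 and OCT1. Each gene was searched over its whole length plus 500 bp on either side, so longer genes had more room for a peak. Among short genes, the OCA-B share was 8.07% for small nucleolar RNA, 8.84% for microRNA and 44.3% for small nuclear RNA genes. OCA-B peaks lay at 71 of the 239 genes, which is 29.7%, against 115 of 190 tRNA genes elsewhere (60.5%) and a background of 30.5% of all 58419 RefSeq genes. MED1 peaks lay at 65 genes (27.2%, against 57.4% of the other tRNA genes and a background of 23.4%). CREBBP peaks lay at 61 genes (25.5%, against 58.4% and a background of 24.0%). These 3 shares stand close to the background, which is not matched for gene length.

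OCT2 peaks lay at 63 genes (26.4%, against 56.3% of the other tRNA genes and a background of 32.3%). EP300 peaks lay at 58 genes (24.3%, against 57.4% and a background of 32.7%). OCT1 peaks lay at 41 genes (17.2%, against 45.8% and a background of 25.1%). Without a single cluster of 32 genes on chromosome 1, OCT1 was at 25 genes, and with all lists shortened to the length of the OCT1 list, OCT2 was at 36 genes and EP300 at 26. By chromosome, OCT1 was the most frequent of the factors on chromosome 1, at 28 of 85 genes (32.9%, where OCA-B had 28.2% and EP300 20%). That 32-gene cluster held 16 of the 28, against 6 genes with OCA-B and 4 with EP300. Outside it OCT1 was the least frequent of the factors on chromosome 1. OCT1 was also the least frequent on chromosome 6, at 13 of 154 (8.44%, where OCA-B and MED1 had 30.5%). For each factor, the exact 95% binomial interval of the share on chromosomes 1 and 6, such as 24.0% to 35.9% for OCA-B, ended below that of the other tRNA genes, such as 53.2% to 67.5% for OCA-B. These intervals cover counting error only, and genes that lie side by side share peaks: the 71 genes with OCA-B drew on 80 distinct peaks, 19 of which lay at 2 or more genes, and the 41 genes with OCT1 on 32 peaks, 17 of which did.

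**Figure D1:**
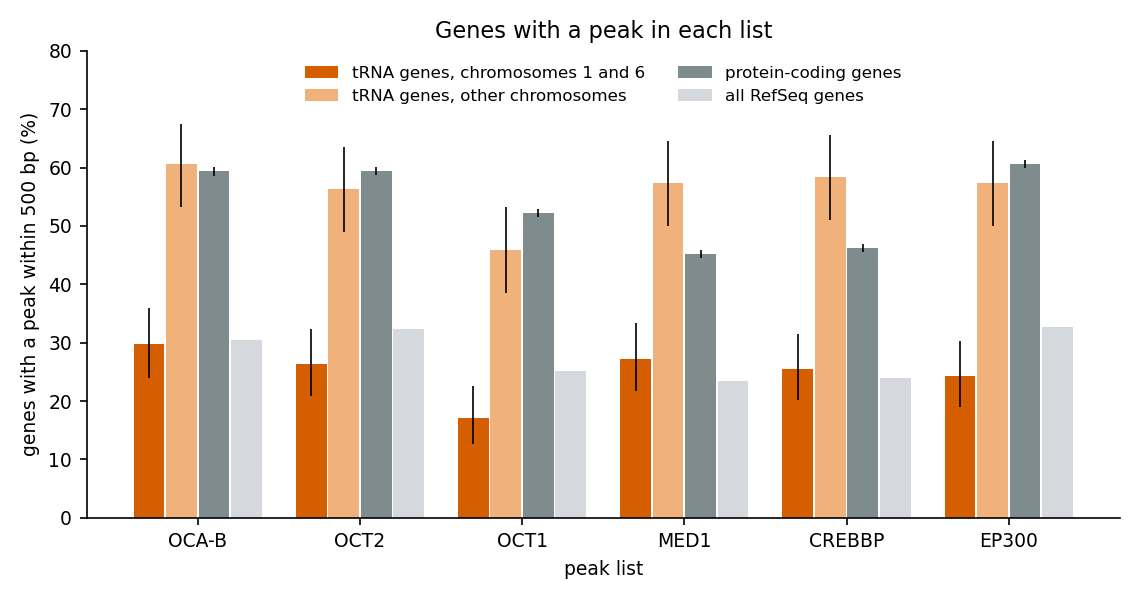
Share of genes (percent) with a peak within 500 bp in each of the 6 lists, for the tRNA genes of chromosomes 1 and 6, the tRNA genes of the other chromosomes, protein-coding genes and all RefSeq genes; bars carry exact 95% binomial intervals except for all RefSeq genes. In every list the tRNA genes of chromosomes 1 and 6 stand below those of the other chromosomes, and OCT1 is lowest at 17.2%.

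Most of the genes had either no peak at all or nearly every factor, in shares close to those of all genes, a background not matched for gene length. No list had a peak at 143 of the 239 genes (59.8%), against 71 of 190 tRNA genes elsewhere (37.4%) and 59.96% of all genes. All 6 lists had a peak at 27 genes (11.3%), against 79 of the other tRNA genes (41.6%) and 16.0% of all genes. A further 25 genes (10.5%) were in 5 lists, against 14.2% of the other tRNA genes and 6.28% of all genes, and in each of the 25 the missing list was OCT1. Together, 21.8% of these genes were in 5 or 6 lists, against 55.8% of the other tRNA genes and 22.3% of all genes. The remaining 44 genes (18.4%, against 6.84% and 17.7%) were in between, 27 of them in 1 list, 9 in 2, 5 in 3 and 3 in 4.

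**Figure D2:**
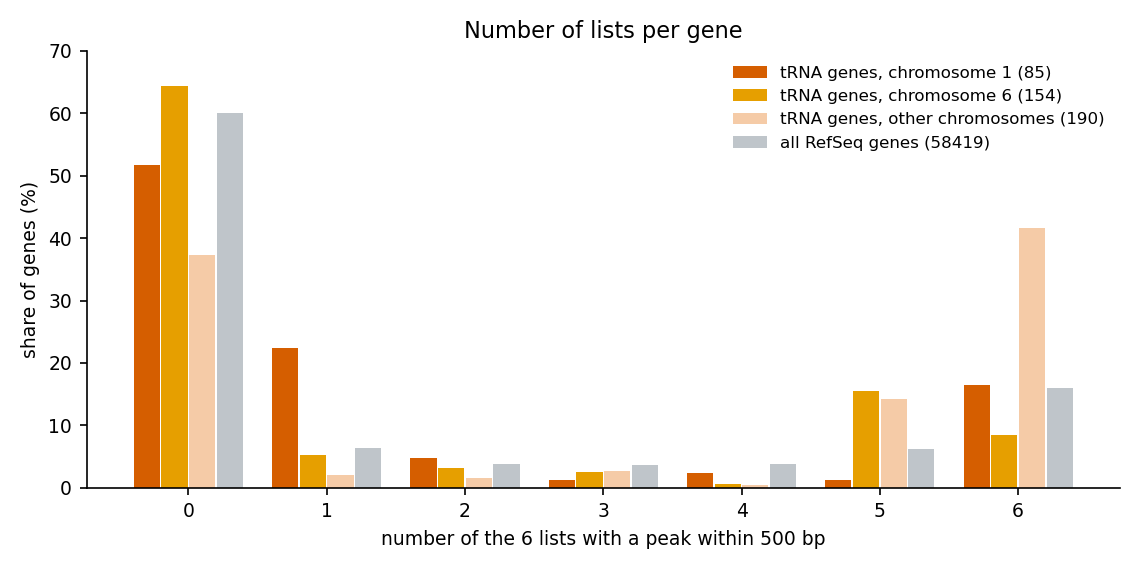
Share of genes (percent) by the number of the 6 lists with a peak within 500 bp, for tRNA genes of chromosome 1, of chromosome 6 and of the other chromosomes, and for all RefSeq genes. Most tRNA genes fall at the ends of the scale, and those of chromosome 6 have more genes in 5 lists (24) than in 6 (13).

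The chromosomes differed in OCT1. On chromosome 6, 37 genes had the other 5 factors and 13 of these (35.1%) also had OCT1. On chromosome 1, 15 genes had the other 5 factors and 14 of these (93.3%) also had OCT1. The same share was 79 of 103 (76.7%) for tRNA genes elsewhere, 77.3% for all genes of chromosome 6, and 41 of 52 (78.8%) for the genes of other kinds between the first and the last tRNA gene of the 144-gene region of chromosome 6 described below. These counts move with the peak threshold: with −log10 q over 5 OCT1 was at 4 of 34 such genes on chromosome 6 and 12 of 15 on chromosome 1, and with all lists shortened to the strongest peaks, to the length of the OCT1 list, at 8 of 12 and 11 of 11. OCT1 folds on chromosome 6 were also low: the median over 13 genes, all with the other 5 factors, was 3.65. It was 6.94 over 28 genes on chromosome 1, 4.61 over 87 tRNA genes elsewhere and 5.65 over the whole OCT1 list. The sets are unlike, because 14 of the 28 genes have OCT1 alone or with OCA-B only. Those 14 lie in the tandem array described below, had a median of 7.17 and in part share peaks. Folds are the authors' own values of enrichment over the input, as the peak caller wrote them, and are used here to rank peaks within a list.

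The strength of the peaks was described by the strongest peak within 500 bp of each gene. Taking the strongest peak, and taking genes in many lists, both favour high folds, so these values are set beside the tRNA genes elsewhere that were chosen in the same way, and the median of the whole list is given for scale only. Over the 52 genes in 5 or 6 lists, the median MED1 fold was 12.0, against 9.59 over 106 such tRNA genes elsewhere (whole list 5.23), and the median MED1 peak was 1091 bp wide, against 589 bp. The median CREBBP fold was 11.7, against 10.6 (whole list 6.602). OCA-B (9.65, against 10.7), OCT2 (8.81, against 9.58) and EP300 (6.63, against 7.18) were slightly lower than at the tRNA genes elsewhere. OCT1 had a median of 5.03 over 27 genes, against 4.60 over 82, both under the 5.65 of its whole list.

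Genes in 1 to 4 lists had lower median folds in 5 of the lists. Their median OCA-B fold was 5.04 over 19 genes, with peaks 184 bp wide, and their median MED1 fold was 4.72 over 13 genes. OCT1 ran the other way, with a median fold of 7.17 over 14 genes, which all lie in the tandem array described below.

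**Figure D3:**
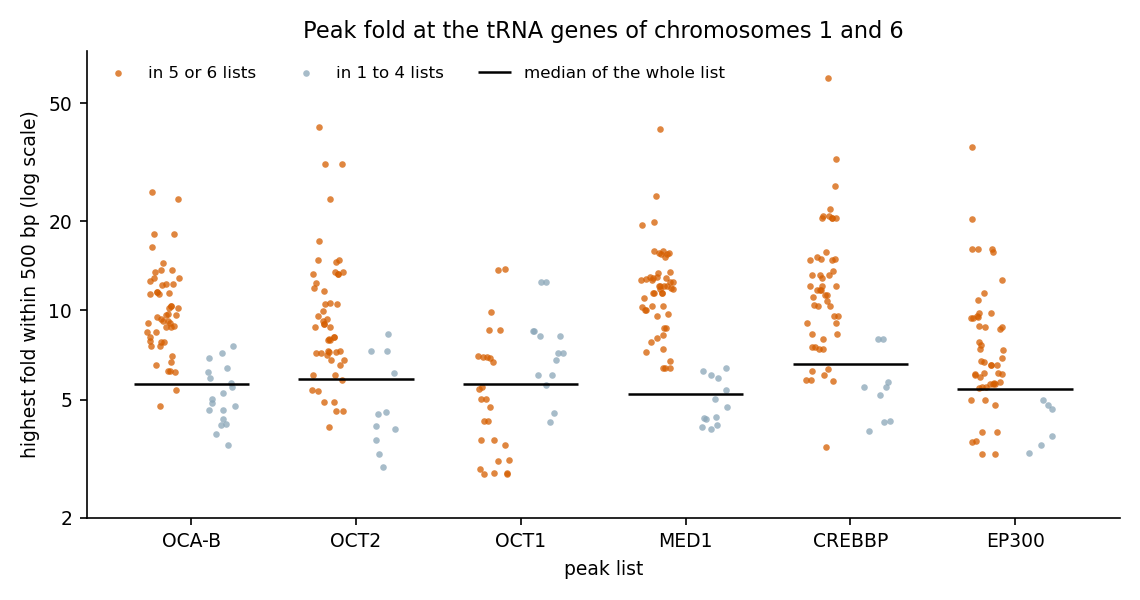
Highest fold of a peak within 500 bp (log scale) at each tRNA gene of chromosomes 1 and 6, by list, for genes in 5 or 6 lists and genes in 1 to 4 lists; black lines give the median fold of the whole list. The median of genes in 5 or 6 lists is above that of genes in 1 to 4 lists except in OCT1, where the medians are 5.03 and 7.17.

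Peaks covered the gene itself in most cases. The OCA-B peaks overlapped the gene at 68 of 71 genes, MED1 at 63 of 65, CREBBP at 60 of 61, OCT2 at 61 of 63, EP300 at 53 of 58 and OCT1 at 34 of 41. Summits, the highest point of each peak, lay within 100 bp of the gene at 46 genes for OCA-B, 38 for CREBBP, 34 for EP300, 33 each for OCT2 and MED1, and 17 for OCT1. TRL-TAA1-1 (chr6:144216547-144216629), a leucine tRNA gene that stands alone, 24608 bp from the nearest protein-coding end, is an example of the narrow kind. The summits of OCA-B, OCT2, MED1, CREBBP and EP300 all fell inside its 83 bp, in peaks 205 to 325 bp wide, with folds of 16.4 (OCA-B), 7.22 (OCT2), 9.74 (MED1), 10.4 (CREBBP) and 9.45 (EP300). The OCT1 peak there was wider, 738 bp, with its summit 89 bp away and a fold of 7.0.

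Of all the peaks at these genes, the strongest of 4 lists lay beside a single glutamate tRNA gene, TRE-TTC4-2 (chr1:161422093-161422164). Its folds were 60.5 for CREBBP, 41.6 for OCT2, 35.5 for EP300, 25.1 for OCA-B, 24.3 for MED1 and 13.7 for OCT1, at percentiles of 92.8 to 99.2 of their lists. MED1 and OCT1 were each higher at 1 other gene. The 6 summits lay 358 to 386 bp from the gene, within 28 bp of each other, in peaks 708 to 1565 bp wide, so the maximum is in the flank and not over the transcribed bases. The nearest protein-coding end was 54217 bp away.

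The serine gene TRS-AGA2-4 (chr6:27503039-27503120) had the highest OCT1 fold, 13.8, beside 31.1 for OCT2, 18.1 for OCA-B, 10.01 for MED1, 9.07 for CREBBP and 8.68 for EP300. OCT2, OCA-B and OCT1 ranked at percentiles 97.3, 95.2 and 92.9 of their lists, and EP300 and CREBBP at 72.1 and 65.8. Its neighbour TRD-GTC2-7, an aspartate gene, shared the OCA-B, OCT2, MED1 and CREBBP peaks, had an EP300 peak of its own (fold 5.70) and had no OCT1 peak within 500 bp. TRL-CAA1-1, whose first bases are printed above, likewise had OCT2 and OCA-B summits 502 and 505 bp away, with folds of 23.8 and 8.12, while the summits of MED1, CREBBP and EP300 lay 0 to 4 bp from the gene with folds of 9.59, 8.0 and 7.39.

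The genes in all 6 lists without a protein-coding end nearby include several that share peaks. TRX-CAT1-7, an initiator methionine gene (chr6:27902493-27902564), and the glycine gene TRG-GCC2-3 next to it had the same strongest peak in every list, with folds of 15.8 for MED1, 14.8 for CREBBP, 13.7 for OCA-B, 9.77 for EP300, 8.81 for OCT2 and 3.65 for OCT1. TRE-CTC1-1 and TRG-TCC2-1, of a 4-gene cluster on chromosome 1, likewise shared the peaks of OCT2 (13.3), CREBBP (13.2), MED1 (12.9) and OCT1 (8.58). These genes are therefore not separate observations of each factor.

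Others held a summit of their own. TRV-AAC1-5, a valine gene (chr6:27753400-27753472) 157713 bp from the nearest protein-coding end, had MED1, CREBBP, EP300, OCT2 and OCT1 summits inside the gene and an OCA-B summit 22 bp away. Its MED1 fold of 19.9 was at percentile 96.2 of that list and its OCT1 fold of 3.13 at percentile 4.7. The tyrosine gene TRY-GTA1-1 (chr6:26568858-26568948) showed the same contrast, with folds of 15.2 for MED1 and 2.93 for OCT1 and all summits within 71 bp. The proline gene TRP-AGG2-2 (chr6:26555270-26555341), in 5 lists without OCT1, had folds of 20.4 for CREBBP and 16.1 for EP300, with both summits over 300 bp away.

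Joining tRNA genes less than 100 kb apart gave 42 clusters, of which 20 hold a single gene and 7 hold 5 or more, with 179 of the genes. In 18 clusters, with 33 genes, no gene had a peak in any list. In 9 clusters every gene was in all 6 lists. They are small, with 16 genes together: the cluster of 4 on chromosome 1 from TRE-CTC1-1 to TRK-CTT2-1, which also holds the glycine gene TRG-TCC2-1, the pairs that begin with TRP-CGG1-1, TRK-TTT3-1, TRL-CAA4-1 and TRX-CAT1-7, and the single genes TRR-TCT1-1, TRX-CAT1-1, TRE-CTC1-7 and TRL-TAA1-1.

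The 7 clusters on chromosome 6 from TRX-CAT1-2 to TRL-AAG3-1 (chr6:26286526-28989083) hold 144 tRNA genes. The whole span holds 21 histone genes, of which 5 lie within the clusters and the others in the gaps between them. Among these tRNA genes 91 were in no list, 35 in 5 or 6 lists and 11 in all 6. Occupancy differed between the clusters. In the first, of 13 genes, OCA-B, OCT2, MED1, CREBBP and EP300 each had a peak at 11 and OCT1 at 2. In the next, of 31 genes, OCA-B and OCT2 were at 9 genes each, MED1, CREBBP and EP300 at 10 each and OCT1 at 3. The cluster of 21 genes had OCA-B at 5, MED1 at 3, EP300 at 3, OCT2 at 2, CREBBP at 2 and OCT1 at 1.

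The cluster of 33 genes, which begins with TRS-AGA2-2, had OCA-B at 10, OCT2 at 9, MED1 at 10, CREBBP and EP300 at 8 and OCT1 at 3. The largest, of 43 genes, had MED1 at 9, OCA-B at 8, OCT2 and CREBBP at 7, EP300 at 5 and OCT1 at none. A separate cluster of 6 genes on chromosome 6, which begins with TRI-AAT1-1 (chr6:57800211-57800284), had no peak in any list, and TRI-AAT1-1 lay farther from a peak than any other gene, 161083 bp.

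**Figure D4:**
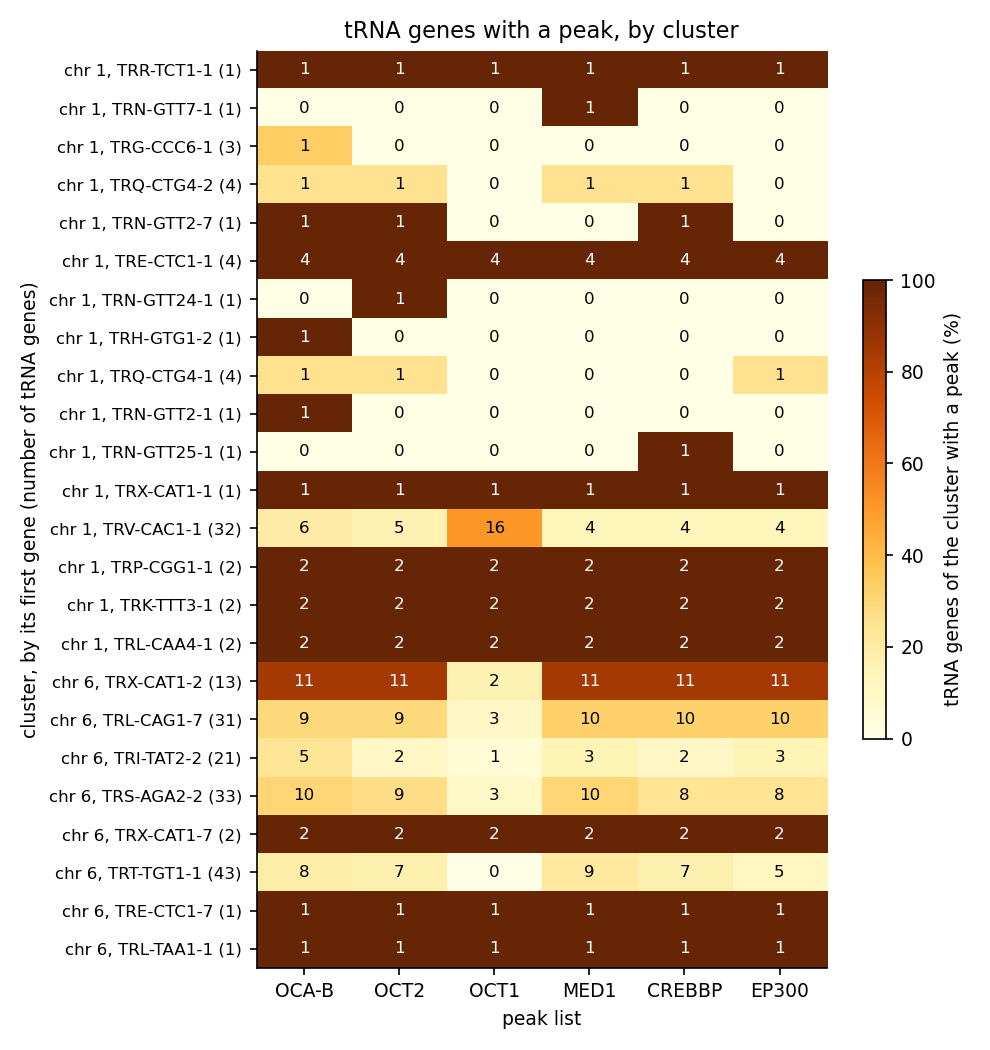
tRNA genes with a peak within 500 bp in each list, for the 24 clusters with at least 1 such gene; rows are named by the first gene, with the number of tRNA genes in brackets, cells give the count and colours its share of the cluster (percent). The 13-gene cluster has 11 genes in every list but OCT1, which has 2, and the 32-gene cluster has OCT1 at 16 genes and each other factor at 4 to 6.

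The cluster of 32 genes on chromosome 1 (chr1:161399700-161612029) carries tandem repeats of glutamate, glycine, aspartate and leucine tRNA genes spaced 7.38 to 7.41 kb apart. OCT1 had peaks at 16 genes of this cluster, against 6 for OCA-B, 5 for OCT2 and 4 each for MED1, CREBBP and EP300. In each of 4 successive repeats, TRE-CTC1, TRG-TCC2 and TRD-GTC2 (copies 2 to 5) had OCT1 and no other factor. These are the only 12 tRNA genes of chromosomes 1 and 6 with OCT1 alone. Among the 190 tRNA genes elsewhere there was 1, and among all 58419 RefSeq genes there were 808. The glutamate and glycine genes of each repeat share a peak, so the 12 genes are not separate observations.

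Each repeat had a stronger OCT1 peak at the glutamate and glycine genes and a weaker one at the aspartate gene. The folds were 7.17 and 4.22 in the first of these repeats, 8.50 and 5.62 in the next, 8.23 and 4.53 in the third and 12.5 and 6.80 in the last. The copies of TRL-CAG1 and TRG-GCC1 in the same repeats had no peak in any list. The incomplete repeat before them had OCT1 (fold 6.07) and a weak OCA-B peak (fold 4.62) at TRG-TCC4-1 and TRD-GTC2-1. Tandem copies share sequence, and how reads that align to several copies were placed is not given in the sources used here; its part in this pattern was not tested. Outside the repeats, TRV-CAC1-1 and TRE-TTC4-2 were in all 6 lists and TRG-TCC2-6 in 5.

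**Figure D5:**
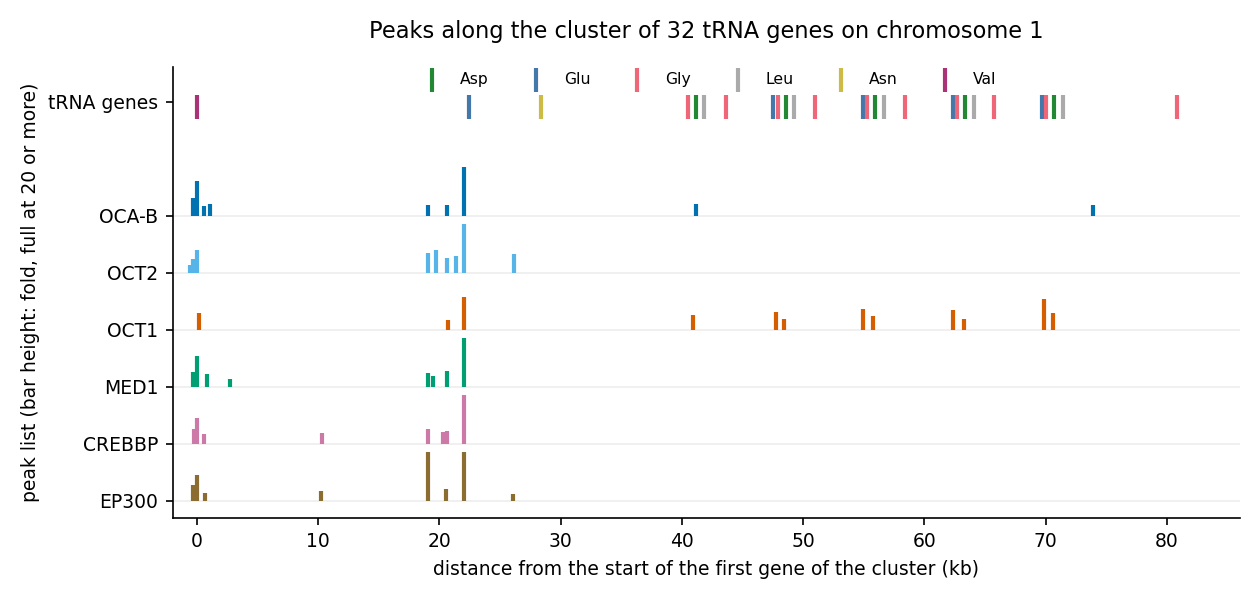
Peak summits of the 6 lists along the first part of the 32-gene cluster on chromosome 1, by distance (kb) from the start of its first gene; bar height is the fold, full at 20 or more, and ticks at the top mark the tRNA genes by amino acid. All 6 lists have peaks at the first 2 genes with a peak, and OCT1 has a pair of peaks in each of the 4 full repeats, with folds of 4.22 to 12.5.

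Few of these tRNA genes lie at the end of a protein-coding gene. An end of a protein-coding gene was within 1 kb of 7 of the 239 genes, in 1 case that of a histone gene, against 48 of 190 tRNA genes elsewhere, none of them beside a histone gene. All 7 had OCA-B, OCT2, MED1 and CREBBP, 6 had EP300 and 5 had OCT1 (71.4%). Over all protein-coding genes, a peak lay within 500 bp of an end at 40.4% for OCA-B, 33.6% for OCT2 and 26.4% for MED1. It was 23.8% for CREBBP, 38.3% for EP300 and 39.8% for OCT1. That background is measured from the gene ends and not from a tRNA gene. Of the 232 genes with no such end, 27.6% had OCA-B, 25% MED1, 24.1% OCT2, 23.3% CREBBP, 22.4% EP300 and 15.5% OCT1. The near share was higher by 55.9 percentage points for OCT1 (31.7 with −log10 q over 5), 63.3 for EP300, 72.4 for OCA-B, 75 for MED1, 75.9 for OCT2 and 76.7 for CREBBP. With 7 genes, 100% has an exact 95% interval from 59.0% up.

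The tRNA genes elsewhere split in the same direction. Near an end, 93.8% had OCA-B, against 49.3% of those not near, and 70.8% had OCT1, against 37.3%. On chromosomes 1 and 6, 46 of the 52 genes in 5 or 6 lists had no such end within 1 kb. The gene just outside that limit, TRL-CAA4-1, 1004 bp from an end of PGBD2, was in all 6 lists.

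On chromosomes 1 and 6, occupancy did not fall step by step with distance from these ends. Of the 14 genes 1 to 5 kb from the nearest end, 3 were in 5 or 6 lists (21.4%). At 5 to 20 kb it was 24 of 60 genes (40.0%), at 20 to 100 kb 18 of 106 (17.0%), and farther away 1 of 52 (1.92%). Among tRNA genes elsewhere the share in 5 or 6 lists did fall at each step. It was 89.6% within 1 kb, then 67.6%, 49.1%, 25.0% and 10.0%. Over all genes it was 22.3%. On chromosomes 1 and 6, 29 genes had an end of a long noncoding RNA gene within 1 kb and no protein-coding end there. Of these, 4 were in 5 or 6 lists and 20 in none.

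The histone case is TRX-CAT1-2 (chr6:26286526-26286597), an initiator methionine gene 992 bp from the start of H4C8, which encodes core histone H4. Its folds were 40.9 for MED1, the highest MED1 value at any of the 239 genes, 23.7 for OCA-B, 32.4 for CREBBP, 20.3 for EP300 and 17.1 for OCT2, and it had no OCT1 peak. The summits of all 5 peaks were nearer to the histone gene: they lay 2 to 25 bp from the H4C8 start and 972 to 1017 bp from the tRNA gene, in peaks 2862 to 4357 bp wide that reach across it. The H4C8 promoter window (chr6:26285485-26285784, minus strand, capitals from the annotated start on) is printed because these summits fall in it.
H4C8: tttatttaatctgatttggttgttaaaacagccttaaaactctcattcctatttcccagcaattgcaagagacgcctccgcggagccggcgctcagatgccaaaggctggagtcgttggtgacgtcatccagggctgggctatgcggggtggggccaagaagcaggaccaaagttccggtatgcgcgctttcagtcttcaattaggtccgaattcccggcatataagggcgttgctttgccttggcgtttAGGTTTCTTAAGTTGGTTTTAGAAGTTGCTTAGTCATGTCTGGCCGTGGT
Histone genes lay within 50 kb of 23 tRNA genes, among them all 13 of the 13-gene cluster. Of these, 16 (69.6%) were in 5 or 6 lists, against 36 of the 216 genes farther away (16.7%); OCT1 was at 5 of the 23 (21.7%), against 36 of the 216 (16.7%).

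The other 6 genes lay beside BCAR3, an adaptor protein gene, ILF2, which encodes an RNA-binding protein, FCGR2A, an Fc receptor gene, HMGN4, a nucleosome-binding protein gene (2 tRNA genes), and NCOA7, a nuclear receptor coactivator gene. At TRR-TCT1-1, 494 bp from the BCAR3 start, the summits lay 0 to 27 bp from the tRNA gene and 486 to 605 bp from the BCAR3 start, and the CREBBP fold was 26.2. At TRX-CAT1-1, 257 bp from the ILF2 start, the summits lay 0 to 111 bp from the tRNA gene and 146 to 259 bp from the ILF2 start. All 6 summits were nearer to the tRNA gene in both cases.

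TRE-CTC1-7, 797 bp from the NCOA7 start, was divided: OCA-B, OCT1 and CREBBP summits lay 0 to 57 bp from the tRNA gene, and OCT2, MED1 and EP300 summits 6 to 25 bp from the NCOA7 start. TRG-GCC2-1 lies inside FCGR2A, 131 bp from the end that is not its start, and was in 4 lists, with folds of 6.93 for OCA-B, 3.27 for OCT2, 4.38 for MED1 and 8.0 for CREBBP and no OCT1 or EP300 peak. Over the 7 genes, 27 of 39 gene and peak pairs had the summit nearer to the tRNA gene than to the gene end. Only the strongest peak within 500 bp of each tRNA gene was counted, which favours the tRNA gene. The peaks shared beside HMGN4 were counted for both tRNA genes there. For TRR-ACG1-2 the OCT1, MED1, CREBBP and EP300 summits count as nearer to the HMGN4 start. The same summits lay 0 to 10 bp from the other tRNA gene, TRV-CAC1-6.

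The valine gene TRV-CAC1-6 (chr6:26538054-26538126) is 240 bp from the HMGN4 start, and the arginine gene TRR-ACG1-2 is 796 bp from it. They share their strongest peak in every list but OCT2, with an OCA-B fold of 9.07, and at TRV-CAC1-6 the summits of OCT1, MED1, CREBBP and EP300 lay 0 to 10 bp from the tRNA gene. The HMGN4 promoter window (chr6:26538116-26538415, plus strand) shows how close they are, since its first 11 bases, in capitals, are the end of TRV-CAC1-6.
HMGN4: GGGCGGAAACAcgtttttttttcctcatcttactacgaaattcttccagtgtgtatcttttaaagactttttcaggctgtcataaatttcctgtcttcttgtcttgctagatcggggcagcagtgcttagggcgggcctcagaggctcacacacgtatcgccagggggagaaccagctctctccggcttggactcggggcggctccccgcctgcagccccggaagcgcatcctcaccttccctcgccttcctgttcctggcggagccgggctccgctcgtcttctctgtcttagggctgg
Neither window, nor those of the BCAR3, ILF2 and NCOA7 starts, held the octamer ATGCAAAT, its first 7 letters ATGCAAA (4.45% of all windows) or TATAAA (11.5% of all windows) on either strand.

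Copies of the same tRNA differed in occupancy. The initiator methionine genes were among the most occupied, with 5 of 7 copies in 5 or 6 lists. The share was 22.3% of all genes and 55.8% of tRNA genes elsewhere. TRX-CAT1-1 and TRX-CAT1-7 were in all 6 and TRX-CAT1-2, TRX-CAT1-3 and TRX-CAT1-4 in 5. The peaks counted for TRX-CAT1-2 have their summits at the H4C8 start, and TRX-CAT1-7 shares its strongest peaks with TRG-GCC2-3. Counts per amino acid are small and include such shared peaks. TRX-CAT1-5 and TRX-CAT1-6 had no peak in any list and lay 19603 and 24314 bp from the nearest. None of the 8 elongator methionine genes, and none of the 17 asparagine genes, was in 5 or 6 lists, and 2 of the 30 alanine genes were. Glutamate genes stood at 5 of 11 and proline genes at 3 of 4.

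Among families with 3 or more copies here, TRQ-TTG3, which encodes glutamine tRNA, had all 3 copies in exactly 5 lists and none with OCT1, and TRS-AGA2 had 3 of 4 copies in all 6. TRG-GCC1, TRM-CAT4 and TRR-ACG2 had no copy in any list. Genes whose family has a single numbered copy among all 429 tRNA genes were less often occupied than those with more: 12 of 113 (10.6%) were in 5 or 6 lists, against 40 of 118 (33.9%). None of the 8 genes with an unnumbered symbol was.

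Genes without peaks were mostly far from any. The 143 genes in no list lay a median of 13128 bp from the nearest peak of any list, 94 of them more than 5 kb away. The nearest lay 569 bp away, just outside the 500 bp limit, and 12 lay within 1 kb.

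The genes of the Pol III apparatus were compared at their own gene ends. Of 23 genes for Pol III subunits, its assembly factors and its regulators, 21 had an OCT1 peak within 500 bp of an end, 20 OCA-B, 17 EP300, 14 OCT2, 14 MED1 and 8 CREBBP, where the background over all 19821 protein-coding genes was 39.8%, 40.4%, 38.3%, 33.6%, 26.4% and 23.8%. Other housekeeping genes were not counted, so whether these shares are particular to this list was not tested. Here OCT1 was the most frequent, at 21 genes against 20 for OCA-B. At the tRNA genes of chromosome 1 it was so only with the 32-gene cluster counted, and at those of chromosome 6 it was the least frequent. The tRNA genes were counted over the whole gene plus 500 bp and not at ends, so these ranks are not like for like. POLR3A, POLR3C, POLR3E, POLR3F and POLR3GL (Pol III subunits), GTF3A (the factor of the 5S RNA gene), GTF3C2 (a TFIIIC subunit) and TBP were in all 6 lists. BRF1, the TFIIIB subunit used at tRNA genes, was in none, and BDP1 had OCT1 alone (fold 4.15).

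Other small RNA genes of Pol III differed from the tRNA genes in the strength of OCT2. Of 20 such genes, 14 were in all 6 lists. The share in all 6 was 11.3% for the tRNA genes of chromosomes 1 and 6, 41.6% for those elsewhere and 16.0% for all RefSeq genes. None of the 4 vault RNA genes was in any, and BCYRN1 had EP300 alone. The median OCT2 fold over the 15 small RNA genes with OCT2 was 40.1, against 7.93 at the tRNA genes of chromosomes 1 and 6 that have OCT2. The lowest OCT2 folds of the 15 were at RN7SL1 (12.6) and RN7SL2 (11.6), which were both in all 6 lists. The median OCT1 fold, over 15 genes with OCT1, was 13.97, against 6.07. RN7SK, an external-promoter gene on chromosome 6, had folds of 40.1 for OCT2, 13.97 for OCT1 and 10.4 for OCA-B, with 4.42 for EP300. MED1 ran the other way, with a median fold of 8.0, against 11.5 at the tRNA genes.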

How the data were processed

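ChIP-seq peak lists of 6 factors in OCI-Ly7 cells were used as deposited, 1 list per factor. Per the file headers, the authors called peaks with MACS2 2.1.1.20160309 on each library against 1 shared control at q 0.05, keeping 1 tag per position; hg38, SAMtools 1.3.1, Bowtie2 2.3.2.2 and CASAVA 1.8.2 come from the submitters' processing notes. Each deposited peak carries the authors' fold enrichment over the local control, the pileup height at its summit and −log10 p and −log10 q values. Whether reads that align to several places were kept is not given in the sources used here.

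Peaks were joined to RefSeq GRCh38.p14 genes (any part within 500 bp) with Python 3.11.15, pandas 2.3.3, NumPy 2.4.6 and SciPy 1.17.1; the join was tested on simulated peaks. tRNA genes less than 100 kb apart formed a cluster, and a gene end counted as near within 1 kb. Intervals are exact binomial (Clopper-Pearson, 95%) and cover counting error only. With 1 library per factor no test was run.

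The members and lists were chosen with earlier results of these data known. Genes named by rule are the 3 highest folds per list, up to 10 genes in all 6 lists without a protein-coding end by OCA-B fold, the gene in the most lists per cluster of at least 5, and the 3 in no list farthest from a peak. Other genes, such as the tandem repeats, the copies of TRX-CAT1 and the printed sequences, were chosen after their values were seen. Alternatives changed the distance, threshold, list length and cluster gap.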

Additional observations from a re-analysis of the deposited data

How the results depend on the processing

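Of 90 alternative values, 17 moved. Only the differences between genes near and not near an end could change direction, and none of them did. A count was taken to move when it changed by more than 1.5 times, and a share or difference when it left the 95% interval of its first value, which is wide for the 7 genes near an end: the OCT1 difference of 31.7 points with −log10 q over 5, against 55.9, lay inside it. With distances of 100 bp or 1 kb, with the summit in place of the whole peak, and with −log10 q over 5, the number of genes per list kept within 1.5 times its value, from 60 to 78 for OCA-B and from 29 to 51 for OCT1, and so did the shares of clusters at gaps of 20 and 500 kb. With −log10 q over 5, 16 genes were in all 6 lists, against 27. With every list shortened to the length of the OCT1 list, OCT2 was at 36 genes, against 63, and EP300 at 26, against 58; the EP300 difference between genes near and not near an end was then 77.1 points, against 63.3. With an end within 5 kb in place of 1 kb the differences were 34.7 points for CREBBP, 33.7 for OCT2, 30.1 for OCA-B, 27.6 for MED1, 25.6 for EP300 and 17.7 for OCT1. The cause of these moves was not tested.

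Alternatives added after seeing the data concerned repeated copies. Without the 32-gene cluster of chromosome 1, OCT1 was at 25 genes, against 41. Among families with a single copy, 17.7% of genes had OCA-B, 15.9% MED1, 15.0% CREBBP, 15.0% OCT2, 12.4% EP300 and 5.31% OCT1, each below the share over all 239 genes. Limiting the count to genes with a unique start sequence was not run, since the promoter table used here lists no tRNA gene. No paired analysis was possible because each factor has 1 library and no test was run.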
